A study of Homo sapiens with 2 samples.

Results

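The genes IFITM1, IFITM2, IFITM3, BST2, LY6E and PLSCR1 encode membrane proteins that act on virus particles as they enter or leave a cell. They were followed in Huh-7 cells, a human hepatoma line, with and without interferon-alpha. Their 9 probe sets are all those that the platform annotation assigns to these genes. The genes themselves were selected with earlier results of these data known. The 6 genes are among 19775 genes with a probe set of their own. The series consists of 2 Affymetrix expression arrays, 1 per condition. The treated flask received recombinant human IFN-alpha 2b at 100 U/mL for 6 hours after 24 hours of incubation, and the untreated flask had only its medium exchanged. Both flasks held the same line, and the labels name no engineered change and no other treatment. With 1 array per condition there is no replicate error, no test was possible, and every difference given here is between these 2 arrays. The number of arrays limits the precision.

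Type I interferon binds a receptor at the cell surface, and kinases attached to the receptor activate a transcription factor complex that contains IRF9. That complex binds a DNA sequence called the interferon-stimulated response element and switches on many antiviral genes. IFITM3 and IFITM2 sit mainly in membranes of endosomes and lysosomes and IFITM1 mainly at the cell surface, where they hinder fusion of enveloped viruses with the host membrane. Tetherin, the product of BST2, holds budding virus particles on the cell surface through a transmembrane end and a GPI anchor. LY6E is a small GPI-anchored protein known both for blocking coronavirus fusion and for promoting entry of some other viruses. PLSCR1, named for phospholipid scrambling, is a palmitoylated membrane protein with antiviral activity against several viruses.

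The start-site regions of 4 of the genes are shown first, because these regions share a short motif although the genes differed by very unequal amounts. The sequences come from RefSeq on build GRCh38.p14 and run 5′ to 3′ on the gene's strand, from 150 bases before the annotated start to the first 10 bases of the transcript. Windows for IFITM1, IFITM3, BST2 and PLSCR1 were matched by symbol. IFITM2 and LY6E are named only. IFITM1 is shown at chr11:313890-314049 on the plus strand, IFITM3 at chr11:320851-321010 on the minus strand, BST2 at chr19:17405621-17405780 on the minus strand and PLSCR1 at chr3:146544598-146544757 on the minus strand. Capitals mark every match to the core of the interferon-stimulated response element, taken here as GAAA, any 2 bases and GAAA again and searched on both strands.
IFITM1: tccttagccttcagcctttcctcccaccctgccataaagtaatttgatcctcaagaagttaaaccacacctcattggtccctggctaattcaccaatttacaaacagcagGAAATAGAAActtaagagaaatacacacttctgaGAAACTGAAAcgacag
IFITM3: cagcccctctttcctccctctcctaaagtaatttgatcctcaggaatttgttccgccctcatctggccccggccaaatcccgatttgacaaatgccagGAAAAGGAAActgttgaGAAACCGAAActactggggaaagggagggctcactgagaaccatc
BST2: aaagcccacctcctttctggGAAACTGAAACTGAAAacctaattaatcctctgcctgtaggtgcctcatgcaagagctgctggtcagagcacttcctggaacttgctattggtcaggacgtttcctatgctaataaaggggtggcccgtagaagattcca
PLSCR1: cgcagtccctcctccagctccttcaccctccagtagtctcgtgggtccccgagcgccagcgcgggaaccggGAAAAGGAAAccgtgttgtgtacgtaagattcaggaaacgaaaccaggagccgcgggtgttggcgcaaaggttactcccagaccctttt

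All 4 windows held the motif on the strand of the gene. IFITM1 had 2 separate matches, GAAATAGAAA beginning 40 bases before the start and GAAACTGAAA beginning 6 bases before it, so that the latter runs over the start site. IFITM3 also had 2, GAAAAGGAAA at 52 bases and GAAACCGAAA at 35 bases before the start. BST2 had 2 overlapping matches of GAAACTGAAA, at 130 and 124 bases before the start. PLSCR1 had 1 match, GAAAAGGAAA, at 79 bases before the start. Windows of 300 bases, from 250 before to 50 after the start, were used for the count, and 3.57% of the 35116 windows in the table held the motif. In a global alignment of these windows IFITM1 and IFITM3 were 63.6% identical, while the other 5 pairs among the 4 genes lay between 48.2% and 51.3%. A match is a description of the letters and not evidence that a factor binds there.

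Among the members with a measured ratio, IFITM3 and PLSCR1 differed most between the arrays, IFITM2 differed less, BST2 differed by under 2-fold and LY6E hardly differed. IFITM1 was at least 3.04-fold higher, a lower bound that gives it no place in this order relative to IFITM2, IFITM3 and PLSCR1. In RNA from a whole culture, a change in the number of expressing cells and a change in RNA per cell cannot be told apart. Values below the median of all values of both arrays, an intensity of 48.5, were raised to that floor before the ratio was taken. A probe set counted if it lay above the floor on at least 1 array, and 8 of the 9 did. Of these, 6 were above it on both arrays and 2 were above it only on the interferon array, so that those 2 could hardly count without being higher there. At least 2-fold higher values were found for 6 of the 8 counted probe sets, and none was 2-fold lower. Across all 28106 counted probe sets, 103 (0.366%) were at least 2-fold higher and 0 (0%) were at least 2-fold lower. With 1 probe set per gene, 4 of the 6 genes passed 2-fold, against 57 of 13269 genes (0.43%) in all. The median log2 ratio of the 6 genes was 1.93, compared with 0.03 for all counted genes. That median takes the lower bound of IFITM1 as its value, so it depends on the floor.

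**Figure D1:**
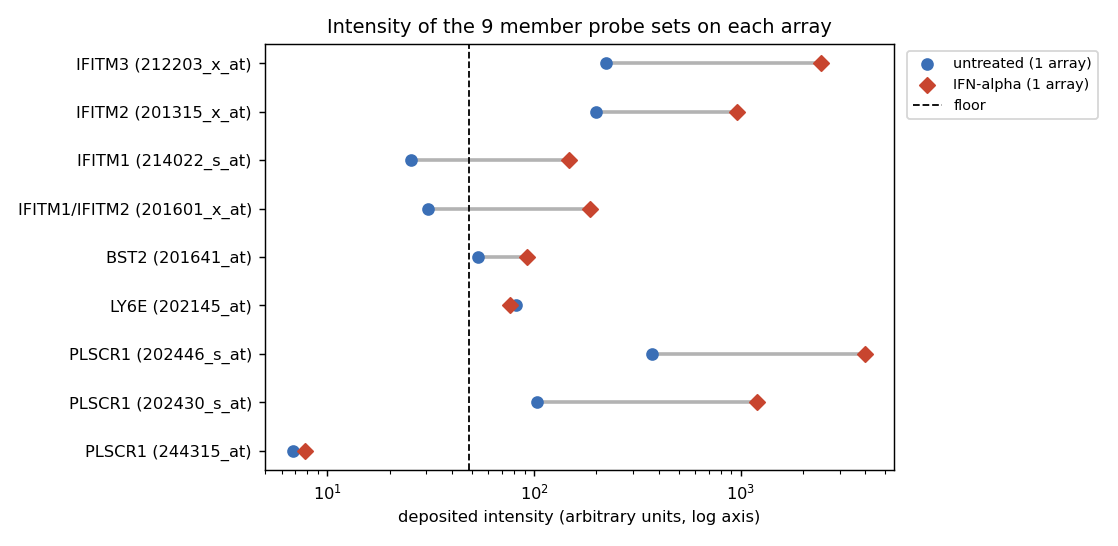
Deposited intensity of each member probe set (log axis, arbitrary units) on the untreated array (blue circle) and the interferon array (red diamond), with the floor of 48.5 as a dashed line. IFITM3 and both counted PLSCR1 probe sets are separated by more than a factor of 10, the IFITM1 probe set and the set shared by IFITM1 and IFITM2 start below the floor, and the LY6E points nearly coincide.

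IFITM3, which restricts influenza and other viruses that enter through endosomes, was read by the probe set 212203_x_at. Its intensity was 221.5 on the untreated array and 2443 on the interferon array. That is 11.03-fold higher with interferon (log2 ratio 3.46), the rank of 11 among the 28106 counted probe sets. Probe sets of similar brightness, the ninth of 10 equal groups ordered by mean log2 intensity, had a central 95% of log2 ratios between -0.10 and 0.29. That range describes other probe sets on the same arrays and is not a replicate error.

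IFITM2, the close relative of IFITM3, was read by 201315_x_at. Its intensity was 199.99 without and 958.5 with interferon, which is 4.79-fold higher (log2 2.26, rank 38). The log2 ratio of IFITM3 exceeded that of IFITM2 by 1.20. Both probe sets carry the suffix that Affymetrix gave to sets whose probes can also match other transcripts, and the genes share sequence, so each value may contain signal from the other.

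IFITM1, the family member found mainly at the cell surface, lay under the floor without interferon. The probe set annotated to IFITM1 alone, 214022_s_at, had an intensity of 25.5 without and 147.1 with interferon. That is at least 3.04-fold higher (log2 at least 1.60). Its suffix also marks a set that can match other transcripts, so the value may contain signal from the other IFITM genes. The probe set 201601_x_at, annotated to both IFITM1 and IFITM2, is kept apart as cross-hybridising. It had 30.7 without and 187.1 with interferon, at least 3.86-fold higher (log2 at least 1.95). Like the IFITM1 probe set, and unlike the IFITM2 probe set, the shared one was below the floor without interferon. As the IFITM1 value is a lower bound, the order of IFITM1 and IFITM2 by ratio is not settled by these arrays. A floor at the 40th percentile raised the bound of IFITM1 to log2 2.20, and one at the 60th percentile lowered it to 0.995.

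The IFITM genes lie together on chromosome 11 in the order IFITM5, IFITM2, IFITM1 and IFITM3 in the RefSeq annotation, and the genes bordering the cluster gave a local comparison. PGGHG lies before IFITM5. Its probe set 219359_at had intensities of 126.6 without and 123.9 with interferon, and 239779_at had 82.0 and 73.7. B4GALNT4 lies beyond IFITM3. Its probe set 238080_at had 71.78 and 77.79, and 238060_s_at, near the floor, had 47.8 and 49.2. The log2 ratios of the bordering genes thus lay between -0.15 and 0.12, in contrast to the 3 IFITM genes between them.

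PLSCR1 was read by 3 probe sets. The brightest, 202446_s_at, had an intensity of 370.9 without and 3987 with interferon, 10.7-fold higher (log2 3.43, rank 12). The probe set 202430_s_at had 102.7 and 1199, 11.7-fold higher (log2 3.55, rank 10). Their log2 ratios differed by 0.12, less than the robust SD of 0.14 across all probe sets that exceeded the floor on each array. The third, 244315_at, was far below the floor without and with interferon, at 6.83 and 7.82, and gave no ratio. The PLSCR1 difference therefore rests on 2 of its 3 probe sets, which came close to each other in size. Both carry the same suffix as the IFITM1 probe set, which marks sets that can match other transcripts. The part of other transcripts in their values was not tested.

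BST2, read by 201641_at, had an intensity of 53.7 without and 92.4 with interferon. It was 1.72-fold higher (log2 0.78, rank 151) and stayed under the 2-fold threshold. Probe sets of like brightness, the second of the 10 groups, had a central 95% between -0.39 and 0.39, and BST2 lay above that range. The range leaves out dim probe sets that were above the floor on only 1 array. At a threshold of 1.5-fold BST2 would be the seventh member probe set counted as higher, where 233 of all probe sets (0.829%) would be. Its untreated value was close to the floor, and with the floor at the 60th percentile the ratio became a bound of 0.32 on the log2 scale. The window of BST2 held as many matches to the motif as those of IFITM1 and IFITM3.

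LY6E, read by 202145_at, had an intensity of 81.3 without and 76.2 with interferon. Its log2 ratio of -0.09 lay within the central 95% of probe sets of like brightness, -0.36 to 0.41. LY6E-DT, a transcript annotated as divergent from LY6E, had 68.3 and 70.4 on its 1 probe set. Neither transcript showed a difference beyond the spread of similar probe sets. LY6E and BST2 each rest on 1 probe set.

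**Figure D2:**
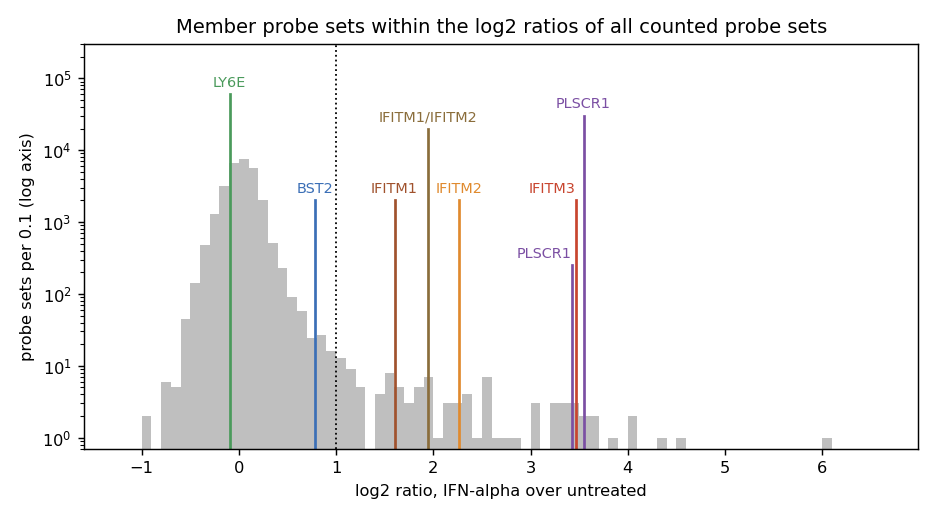
Histogram of log2 ratios, interferon over untreated, for all 28106 counted probe sets (grey, log axis of counts per 0.1), with the 8 counted member probe sets as coloured lines whose height has no meaning. The dotted line marks 2-fold; LY6E (-0.09) lies in the bulk, BST2 (0.78) in its upper tail, and the IFITM and PLSCR1 probe sets lie to the right of the line.

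The motif seen in the member windows was also frequent among the other genes that differed. Of the counted genes, 10683 had a start-site window. The motif was present in 30 of the 48 genes at least 2-fold higher (62.5%) and in 359 of the 10635 genes under 2-fold (3.38%). Without IFITM1, IFITM3 and PLSCR1 the former count was 27 of 45 (60%). Read the other way, 30 of the 389 counted genes with the motif (7.71%) were at least 2-fold higher, against 18 of 10294 without it (0.175%). BST2 belongs to the larger group that held the motif and stayed under 2-fold. These shares are descriptions of 2 arrays and were not tested.

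By the distance between the pairs of log2 intensities, each member that passed 2-fold was set beside the genes with the most similar values among 13263 others. Intensity also depends on the probes, so closeness says nothing of shared function or control. Nearest to IFITM3 was DTX3L, a ubiquitin ligase that partners PARP9, with 202.7 and 1905 at a distance of 0.38 on the log2 scale. Next came USP18 at 0.64 and TRIM25 at 0.64. Nearest to IFITM2 were HERC5, the main ISG15 ligase, with 189.2 and 958.4 at a distance of 0.08, TRIM14 at 0.19 and PARP12 at 0.37. Nearest to IFITM1, with the floor applied, were LAMP3 with 21.8 and 140.3 at a distance of 0.07, OAS1 at 0.25 and HERC6 at 0.28. Nearest to PLSCR1 was the zinc-finger antiviral protein gene ZC3HAV1, with 444.7 and 2633 at a distance of 0.65, ahead of TRIM25 at 0.88 and UBE2L6 at 1.07. The neighbours of PLSCR1 thus lay farther away than those of IFITM2. IFITM1 and its neighbours were all below the floor untreated. Their distances therefore rest on the interferon array alone and cannot be set against the others.

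Relatives of the members by sequence family stayed under 2-fold wherever they were counted. Of the other genes of the IFITM and CD225 family, 5 were counted and none passed 2-fold in either direction, with a median log2 ratio of -0.10. IFITM10 had 92.3 and 86.3, and TRARG1, which takes part in glucose transporter trafficking in fat cells, had 107.4 and 82.1 (log2 -0.39). PRRT2, a synaptic protein, had a log2 ratio of -0.29 and SYNDIG1L one of 0.03. Of the LY6/uPAR family 12 genes other than LY6E were counted, none passed 2-fold, and the median was -0.01. The complement inhibitor CD59 in that family had 669.7 and 741.8 (log2 0.15) and the urokinase receptor PLAUR had 90.99 and 83.86 (log2 -0.12). The receptor decoy BAMBI had 1370 and 1559 (log2 0.19), and LYPD6B had a log2 ratio of 0.04. Among scramblases and their kin 5 were counted, and none passed 2-fold. PLSCR4 and PLSCR2 exceeded the floor on neither array, at 19.6 and 22.5 for PLSCR4 and 16.5 and 19.1 for PLSCR2, while the calcium-activated scramblase ANO6 had 1067 and 1232 (log2 0.21). The log2 ratio was 0.03 for XKR8, a scramblase of dying cells, 0.09 for TMEM41B and -0.01 for ATG9A. Among the counted genes on the scramblase list, PLSCR1 was therefore the only one at least 2-fold higher with the floor used. Of the 11 others on that list, 8 had a probe set of their own, and 3 of these exceeded the floor on neither array.

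Genes that process or partner the members were also close to their untreated values. All 26 counted genes of GPI anchor synthesis and attachment, on which BST2 and LY6E depend, stayed under 2-fold, with log2 ratios from -0.10 to 0.17. GPAA1, a subunit of the transamidase that attaches the anchor, had 921.6 and 928.8, and PIGT, another subunit, had 727.2 and 703.5. DPM1 and DPM2, which make the mannose donor of the anchor, had log2 ratios of 0.13 and -0.07. The 16 counted processing and trafficking partners had log2 ratios between -0.07 and 0.27. Among them ZMPSTE24, a protease that works with the IFITM proteins, had the highest (1078 and 1296), and ZDHHC20, a palmitoyl transferase acting on IFITM3, had 1709 and 1861. NEDD4, a ubiquitin ligase that marks IFITM3 for turnover, had 172.0 and 164.0. The IFITM3 partner VAPA had 2473 and 2761, the ATPase gene VCP had 2898 and 3195, and AP2M1, a subunit of the endocytic adaptor, had 2015 and 2241.

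Among other factors acting at entry, membranes or release, 6 genes of the 19 counted had at least 2-fold higher values and none a 2-fold lower one, with a list median of 0.36. MX1, a dynamin-like GTPase, was at least 16.9-fold higher (44.0 and 818.2). IFI6 was 8.34-fold, TRIM25 6.39-fold and APOL6 at least 5.74-fold higher. The capsid-binding factor TRIM5 was 2.07-fold higher (194.7 and 402.3) and LGALS3BP at least 2.04-fold (38.1 and 98.7). RSAD2 (20.9 and 65.9) and SLC15A3 (45.2 and 76.7) were below the floor untreated and were not among the 6. Their log2 ratios of at least 0.44 and 0.66 are bounds, so whether they passed 2-fold is not settled. NCOA7, a gene with an interferon-inducible short form that acts on endosomes, was 1.76-fold higher (584.8 and 1031), close to BST2. The membrane proteins SERINC3 and SERINC5, which lower the infectivity of retrovirus particles, had log2 ratios of 0.18 and 0.26, and CH25H, the gene of an enzyme that oxidises cholesterol, exceeded the floor on neither, at 9.07 on each. The tetraspanin TSPAN6 had 2034 and 2040.

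In the list of the interferon signal path 2 of 11 counted genes passed 2-fold, IRF9 with 106.7 and 2143 and the feedback protease USP18 with 320.2 and 1908. The 9 others stayed under 2-fold, among them the receptor chain IFNAR2 (log2 -0.11), the kinases JAK1 (0.12) and TYK2 (0.01) and the transcription factor STAT3 (0.08). None of the 11 counted entry receptors and tetraspanins passed 2-fold, and their log2 ratios ran from -0.18 to 0.26. CD81, a tetraspanin and a receptor for hepatitis C virus, had 1243 and 1287. SCARB1 and CLDN1, which also serve that virus, had log2 ratios of 0.08 and 0.20. The lysosomal tetraspanin CD63 had 3765 and 4444, and the transferrin receptor TFRC had 5515 and 6443. Over all 8 lists, 8 of 105 different counted genes other than the members were at least 2-fold higher.

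**Figure D3:**
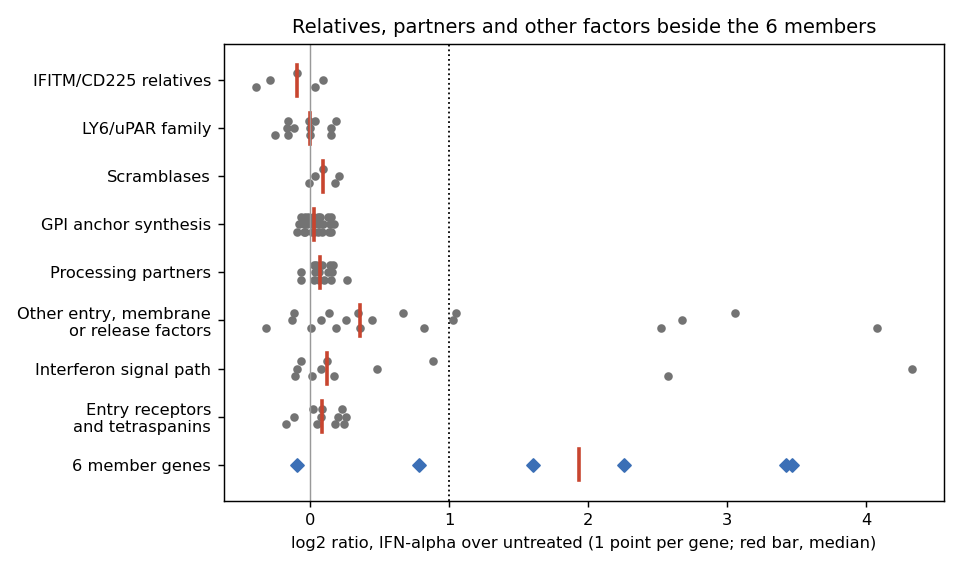
Log2 ratio, interferon over untreated, for every counted gene of 8 lists (grey points, 1 per gene) and for the 6 member genes (blue diamonds). Red bars are medians and the dotted line is 2-fold. The IFITM1 diamond is a lower bound, and the median of the members rests partly on it. The family, anchor, partner and receptor lists lie close to 0, whereas 6 genes of the entry, membrane or release list, 2 genes of the signal path and 4 of the 6 members lie past 2-fold.

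The cells' identity was checked with marker genes. All 9 hepatocyte and hepatoma markers with a probe set exceeded the floor on each array, with untreated intensities from 2999.9 to 12212. Of the other cell types, 3 of 5 leukocyte, 2 of 4 endothelial and 3 of 5 stellate and fibroblast markers were counted. None of them passed 2-fold, and the remaining markers exceeded the floor on neither array. The leukocyte marker LYZ was bright on both arrays, at 2064 and 2271, and the fibroblast marker COL1A2 had 544.3 and 559.9. The part of such markers in the member values was not tested.

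Under the other floors and scalings run, the 5 genes other than IFITM1 kept their order by log2 ratio, from IFITM3 and PLSCR1 through IFITM2 and BST2 to LY6E. The value of BST2 was itself a bound with the floor at the 60th percentile. IFITM1 and the set shared with IFITM2 had bounds that the floor sets, and the shared set reached 2.55 at the 40th-percentile floor. The 18 probe sets of the hybridisation controls were brighter on the interferon array by a median of 0.43 on the log2 scale, and centring on them lowered the median of all counted probe sets by 0.40. With that centring LY6E stood at -0.52 and BST2 at 0.35, while the same 6 probe sets stayed at least 2-fold higher. The part of array scaling in the sign of LY6E was not tested beyond these settings.

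**Figure D4:**
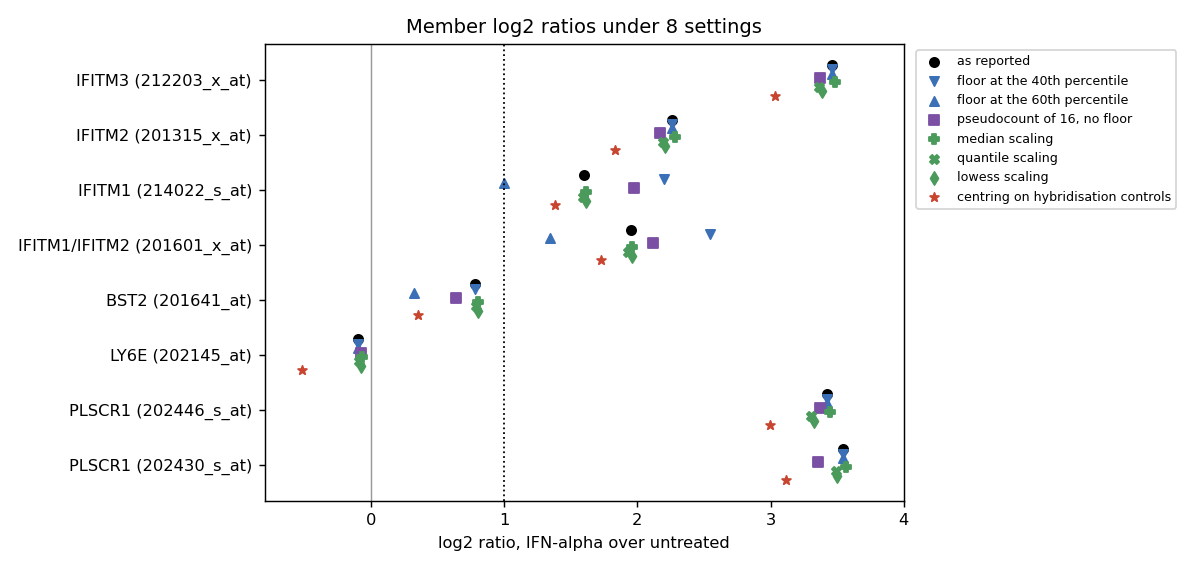
Log2 ratio of each counted member probe set under 8 settings, with 2-fold as a dotted line. Centring on the hybridisation controls (red stars) moves every probe set to the left, the choice of floor (blue triangles) moves IFITM1, the shared IFITM1/IFITM2 set and BST2, and PLSCR1 and IFITM3 stay at 2.999 or above in each setting.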

How the data were processed

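The table holds 54675 probe sets, 62 of them controls, on 2 arrays of Huh-7 RNA. The deposited values are the authors' intensities, 1 per probe set and array and not in log form, and the submitters' processing notes name GCOS, Affymetrix's scanner software. Version, background correction, probe summary and scaling were not given in the sources used here. Medians over the 54613 other probe sets were 48.8 untreated and 48.0 with interferon. Names come from the platform annotation, and symbols were updated by gene ID through RefSeq: 41091 had 1 gene, 1801 several and 11721 none named.

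A floor at the 50th percentile of all values was applied, and log2 ratios were taken with Python 3.11.15. A gene was represented by the brightest of the probe sets annotated to it alone, averaged over both arrays in log2. All member probe sets are named, and so are list genes past 2-fold and up to 4 of the brightest others of a list. Genes with the nearest values are also named. LY6E-DT, PGGHG, B4GALNT4, PLSCR2, PLSCR4, ZMPSTE24, NEDD4, CH25H, CD81, RSAD2 and SLC15A3 were chosen after their values were seen. The members and lists were chosen with earlier results of these data known. The counting was tested on simulated data with differences planted only in probe sets well above the floor. That test did not cover dim probe sets such as those of IFITM1 and BST2 and the shared IFITM set. Alternatives were the floor, a pseudocount of 16, median, quantile and lowess scaling, centring on hybridisation controls, a threshold of 1.5-fold and the choice of probe set. Gene coordinates are given only for RefSeq start-site windows, and Biopython 1.88 aligned them.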

Additional observations from a re-analysis of the deposited data

How the results depend on the processing

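With a floor at the 40th or 60th percentile the log2 ratio of IFITM1 was 2.20 or 0.995, and that of BST2 was 0.32 at the 60th. The log2 ratio of IFITM3 minus the bound of IFITM1, the lowest of the 4 IFITM probe sets, is an upper limit that the floor sets. It was at most 1.86 with the floor used, 1.26 and 2.47 at these floors and 1.65 after centring on the hybridisation controls, and a pseudocount of 16 without a floor gave 1.40. The pseudocount gave 1.98 for IFITM1 and 0.64 for BST2. That centring gave 1.38 for IFITM1, 1.83 for IFITM2, 3.04 for IFITM3, 0.35 for BST2, -0.52 for LY6E and 2.999 for PLSCR1. These values moved by more than 0.14, the robust SD across probe sets, and median, quantile and lowess scaling moved none of the 6 genes by more than that. No direction of a member changed under the alternatives run.

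The number of member probe sets at least 2-fold higher stayed between 5 and 7, except that it was 0 of 3 without sets ending in _x_at or _s_at, because all 6 of them have such names. Over all probe sets, 233 were higher and 21 lower at 1.5-fold. The count of 2-fold lower probe sets, 0 as reported, was 1 at the 40th-percentile floor, 1 with quantile scaling, 1 with lowess scaling and 12 after centring on the hybridisation controls. No paired analysis was possible because each condition has 1 array. Brightness limits IFITM1 and BST2, whose untreated values were below or near the floor.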
